A study of Mus musculus with 2 samples.

Results

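The cells described here are cartilage cells of mouse ear skin that scored highest for a gene set with *Cytl1* and *Wif1*. They were chosen by a fixed rule on unique molecular identifier (UMI) counts. A cartilage cell had no UMI of the leukocyte gene *Ptprc* or the fibroblast gene *Pdgfra* and at least 3 UMIs of *Comp*, *Col9a1*, *Hapln1* and *Cilp2* together. Each cartilage cell was scored for 5 sets of 4 genes as the mean of ln(1 + UMIs per 10000). Members had their highest score, of at least 0.5, for *Msmp*, *Trf*, *Cytl1* and *Wif1*. The other sets were led by *Acan*, *Ucma*, *Angptl7* and *Gdf5* and gave the classes named after those genes. Of 23878 cells that passed the quality filter, 4656 were cartilage cells and 3448 were members, 2197 in control and 1251 in ACD.

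The study profiled ear skin by single-cell RNA sequencing to define how each cell type of the skin responds in allergic contact dermatitis (ACD). The control library came from healthy ear skin of ICR mice aged 7 to 8 weeks. The ACD library came from ICR mice of the same age that were sensitized on the back with 1.0% 2,4-dinitrofluorobenzene (DNFB), a contact hapten, and painted on the ears with 0.2% DNFB on day 6, with ear skin taken 60 hr later. The methods describe the treated animals as male and do not say how many went into each library or whether control ears received the solvent. ICR is an outbred stock, and both groups were whole ear skin digested with collagenase D and DNase1, so cartilage was released together with skin. There was 1 library in each group, so no difference below could be tested, and the ranges given cover counting error only.

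Ear cartilage is elastic cartilage: chondrocytes in a matrix of type II collagen, aggrecan and elastin, wrapped in a fibrous perichondrium that holds progenitor cells. Chondrocytes are long-lived cells whose work is matrix upkeep, and cytokines of inflamed tissue can change which proteins they make. *Cytl1* encodes a small secreted protein of cartilage, *Wif1* a secreted inhibitor of Wnt proteins, *Trf* the iron carrier transferrin and *Msmp* a small secreted microseminoprotein.

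The libraries held 12895 (control) and 13163 (ACD) barcodes with 99037698 and 126566870 UMIs, and 50 barcode sequences occurred in both, carried by 11 control and 8 ACD members. Members summed to 17601164 UMIs in control and 11955565 in ACD, with medians of 7431 and 8944 UMIs per cell. A level below is the UMI sum of a gene over the members of a library per 1000000 of their UMIs. A log2 difference of ACD over control has 10 UMIs per 1000000 added on each side, which shrinks the values of scarce genes, and 2-fold means a log2 value of at least 1 on this scale. Genes with at least 50 UMIs over all members were measured, 11605 in all.

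Members carried the chondrocyte genes along with the 4 genes of the rule. Their level of *Sox9*, the chondrocyte transcription factor, was 731 in control and 770.1 in ACD, and at least 94.4% of members of each library had a UMI of it. The level of *Col2a1*, the main collagen of cartilage, was 600.0 and 677 in 60.6% and 66.1% of members, and that of *Acan*, the aggrecan core protein, was 830.1 and 986. *Col11a1*, *Col9a2*, *Lect1* (chondromodulin) and 3110079O15Rik (*Snorc*) were also present, whereas *Matn1*, the matrilin of hyaline cartilage, had no UMI in any member. The label of cartilage cells therefore held, but the name *Cytl1* and *Wif1* positive did not set members apart by presence alone. *Cytl1* was found in 94.4% of the 36 Acan set cells and 85.1% of the 537 Angptl7 set cells of control, and members were the bulk of the cartilage cells rather than a small subset.

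The 4 genes of the rule differed in how widely members carried them, and these values chose the cells and are given as a description. *Cytl1* (ENSMUSG00000062329, chr5:37735519-37739820) stood at 12738 per 1000000 in control and 12170.0 in ACD, and *Wif1* (ENSMUSG00000020218, chr10:121033960-121100650) at 5545 and 5109. Both were in nearly every member, at 99.4% and 98.8% in control. *Trf* (ENSMUSG00000032554, chr9:103204001-103230444) stood at 1720.0 and 1636 and was in 64.6% of control and 64.5% of ACD members. *Msmp* (ENSMUSG00000078719, chr4:43583216-43584494) stood at 1484 and 1686 in only 39.3% and 39.1% of members. Positions are on GRCm38.

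Leukocytes gave a background for these shares, whose source was not tested. With every cell thinned to 2000 UMIs, *Cytl1* was in 98.0% of control members and in 18.4% of leukocytes, which should lack it. *Msmp* was in 26.9% of thinned control members, against 1.05% of leukocytes, 2.24% of Angptl7 set cells and none of the 36 Acan set cells. Median depths before thinning were 7431 UMIs in members and 4126 in leukocytes. All 4 genes were found together in 28.9% of control and 29.3% of ACD members.

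**Figure D1:**
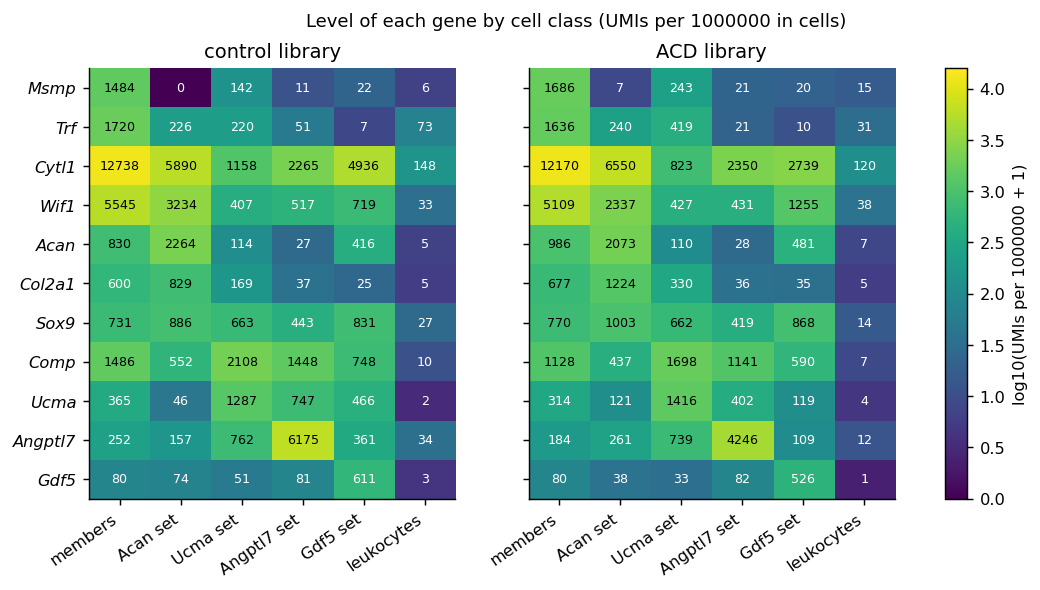
Level of 11 marker genes (rows, UMIs per 1000000, printed in each field and coloured as log10 of the level + 1) in members, the 4 other cartilage classes and leukocytes (columns) of the control (left) and ACD (right) library. *Msmp* and *Trf* are highest in members of both libraries, while *Cytl1* and *Wif1* are also high in the Acan set.

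The score of members lay well above the limit of 0.5, with a minimum of 0.776 in control and 0.696 in ACD and medians of 2.56 and 2.49. The boundary that mattered was with the other sets. In control, 47 members led the next set by under 0.1, and 56 cells missed membership by under 0.1. In ACD these numbers were 45 and 48. The second set was the Acan set in 61.0% of control and 64.9% of ACD members.

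Members were a similar part of the cartilage cells in both libraries, slightly smaller in ACD. The control library held 2925 cartilage cells, of which members were 75.1% (73.5 to 76.7). The ACD library held 1731, and the member share was 72.3% (70.1 to 74.4). On the log2 scale ACD differed from control by -0.06 (-0.16 to 0.05). That range treats members as counts against fixed totals and is too wide for shares this large. It therefore does not show that the shares were equal. Among all cells kept, the member share was 17.99% (17.3 to 18.7) for the control library and 10.7% (10.2 to 11.3) for the ACD library, a log2 difference of -0.75 (-0.85 to -0.65), while 602 control and 3150 ACD cells were leukocytes. A smaller share of all cells and a larger number of leukocytes cannot be told apart here. The Acan set was the class whose share of cartilage cells differed most, 36 cells (1.23%, 0.863 to 1.70) in control and 90 cells (5.20%, 4.2 to 6.35) in ACD.

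Members differed from the other cartilage cells in *Prg4*, *Notum*, *Apoe* and other genes, and these contrasts describe the class and are no test, since the rule used the same cells. In both libraries 70 of 12095 measured genes (0.579%) were at least 2-fold higher in members than in the sum of the other classes, and 203 (1.68%) were at least 2-fold lower. *Prg4*, which encodes lubricin, the boundary lubricant of joint surfaces, led with a log2 difference of 3.38 in control and 3.07 in ACD. *Notum*, an enzyme that inactivates Wnt proteins, followed with 3.08 and 2.58, at levels of 218 and 212 in members against 6.49 and 7.21 in the Angptl7 set. *Fzd9*, a Wnt receptor, differed by 2.24 and 1.74, *Sfrp1*, a secreted Wnt antagonist, by 2.12 and 1.43, and *Lef1*, a nuclear partner of beta-catenin, by 1.74 and 1.44.

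Of 43 measured Wnt pathway genes, 5 were higher in members in both libraries and 4 were lower, the lowest being *Sfrp2* at -4.37 and -3.68. *Apoe*, the lipid carrier, was among the most abundant transcripts of members, at 10853 in control and 8518 in ACD, against 1325 and 1020.0 in the Angptl7 set and 5224 and 6181 in the Acan set. *Cpe* (carboxypeptidase E), *Tspan8*, *Grm4* (a glutamate receptor), *Gm525*, *Ppa1* and *Slc9a9* were also among the 10 leading genes. Against the Acan set alone, *Cpe* and *Fzd9* did not stand out, since *Cpe* was at 932 and *Fzd9* at 472 in the Acan set of control, close to the 1047 and 471 of members. At the low end stood *Mfap4*, a microfibril protein, *Igfbp6*, *Igfbp5* and *Olfml3*, all of them abundant in the Angptl7 set, where *Mfap4* reached 1650.0 per 1000000 in control against 31.9 in members.

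Members were not alike, and *Msmp* split them. In control 531 members (24.2%) had at least 3 *Msmp* UMIs and 1333 (60.7%) had none, and in ACD the numbers were 306 (24.5%) and 762 (60.9%). Median depth differed little, 7910 against 7155 UMIs in control. In both libraries 12 of 11605 genes (0.103%) were at least 2-fold higher and 13 (0.112%) at least 2-fold lower in the *Msmp*-rich members.

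The haemoglobin genes *Hba-a1* and *Hbb-bs* were among the 12, at 2477 against 36.1 and 3165 against 53.8 in ACD, and 5 of all ACD members held 96.6% and 95.8% of their UMIs. The keratinocyte genes *Lgals7*, *Krt16* and *Slurp1* were among the 13, with *Lgals7* at 2.90 against 37.2 in control. *Gm525* was at 216 against 39.7 in control and 299 against 56.9 in ACD. The pyrophosphatase gene *Ppa1* was at 402 against 136 in control and 554 against 161 in ACD. The water channel genes *Aqp5* and *Aqp2* and the ETS factor *Etv4* were on the same side in both libraries. Lipid genes lay on both sides. *Elovl7*, a fatty acid elongase, was at 27.5 in *Msmp*-rich and 2.86 in *Msmp*-free members of control, whereas *Scd1*, which makes monounsaturated fatty acids, was at 126 in *Msmp*-rich members and 339 in *Msmp*-free members of control, and *Fdps* of sterol synthesis at 38.2 and 103. *Dgat2*, which makes triglycerides and belongs to the Acan set, was at 25.2 and 79.5, and *Acan* itself at 612 and 935. *Eln*, the elastin gene, was at 991 in *Msmp*-rich and 1615 in *Msmp*-free control members, and at 1092 and 2193 in ACD. Across the 2197 control members *Msmp* and *Trf* correlated with a Pearson r of 0.26, and *Msmp* and *Acan* with -0.17, in cells that share 1 library and its depth range. *Msmp*, *Trf*, *Acan* and *Dgat2* all took part in the rule, so their values here describe the chosen cells only.

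The main question, how these cells differed between control and ACD skin, gave a short list. Of 11605 measured genes, 44 were at least 2-fold higher in ACD members (0.379%) and 2 were at least 2-fold lower (0.0172%), which is 0.396% in either direction, and the median log2 difference over all genes was -0.03. Of the 44, 19 belonged to a list of interferon response genes, 8 to other lists fixed for this report and 17 to none. For 15 of them, 5 members held most of the ACD UMIs, and the rest were spread over more members.

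**Figure D2:**
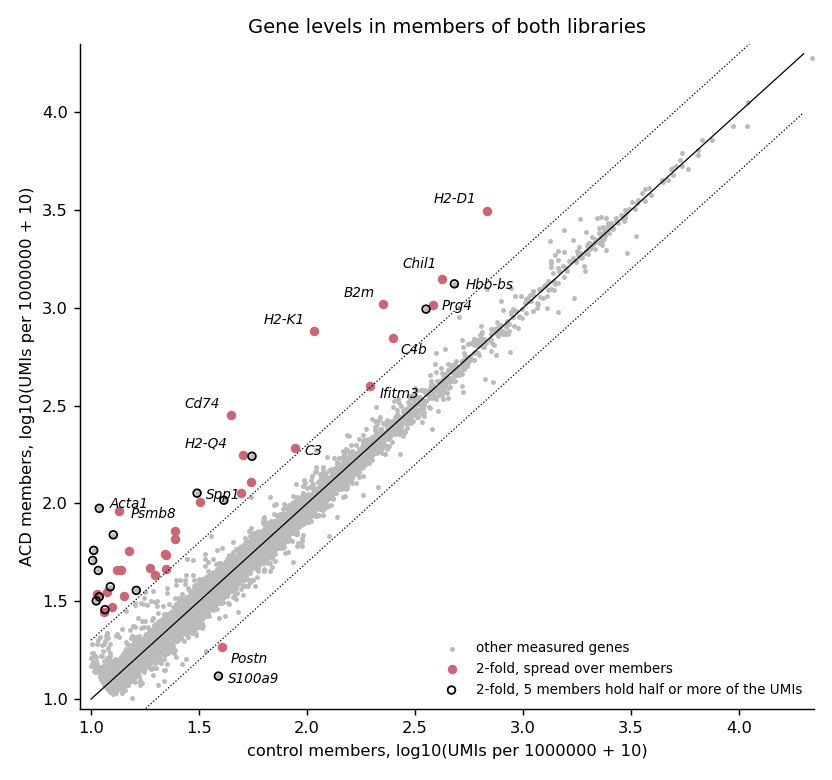
Level of each of the 11605 measured genes in ACD members (vertical) against control members (horizontal), both as log10(UMIs per 1000000 + 10), with the line of equality and dotted lines at 2-fold. Class I genes, *Prg4*, *Chil1* and *C4b* lie above the upper line, and open circles mark genes whose UMIs sat mostly in 5 members.

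The clearest group was antigen presentation by class I molecules, which show peptides of the cell's own proteins to CD8+ T cells. *H2-K1* (ENSMUSG00000061232, chr17:33996017-34000347), a class I heavy chain, was at 98.1 (93.5 to 103) in control and 752 (737 to 768) in ACD, a log2 difference of 2.82. *H2-D1* (ENSMUSG00000073411, chr17:35262730-35267499), the other heavy chain, was at 674 (662 to 686) and 3133 (3101 to 3164), and *B2m* (ENSMUSG00000060802, chr2:122147686-122153083), their common light chain, at 215 (209 to 222) and 1039 (1021 to 1057). Class I genes are near-identical copies that differ between mouse haplotypes, so reads could be split among them, and the 2 libraries may hold different haplotypes.

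The machinery that cuts and loads the peptides was higher as well. *Psmb8* (ENSMUSG00000024338, chr17:34197721-34201454), a catalytic subunit of the immunoproteasome, was at 3.52 (2.70 to 4.52) in control and 81.8 (76.8 to 87.1) in ACD, and *Psmb9*, its partner, at 3.81 (2.95 to 4.83) and 35.7 (32.4 to 39.3). The peptide transporter gene *Tap1* was at 9.77 and 33.0, a log2 difference of 1.12. Non-classical class I genes went the same way, with *H2-Q4* at 40.3 and 167, *H2-T23* at 21.9 and 91.4 and *H2-Q7* at 12.04 and 45.3. These values did not come from a few cells. With the 5 members richest in each gene left out of each library, a setting chosen after seeing the data, the log2 difference was 2.83 for *H2-K1*, 2.20 for *B2m*, 2.19 for *H2-D1* and 2.77 for *Psmb8*.

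Genes of class II presentation, mostly made by professional antigen-presenting cells, were also higher in ACD members. *Cd74*, the invariant chain, was at 34.5 in control and 273 in ACD, but in control 5 members held 93.4% of its UMIs, and without the 5 richest members of each library its levels were 2.28 and 247. A *Cd74* UMI was present in 2.05% of control members, and in ACD in 30.4%. *H2-Ab1* was at 14.4 and 62.1, and *H2-Aa* at 12.3 and 44.5, and in control 5 members held 88.9% and 91.2% of their UMIs. Without the 5 richest members the levels were 1.60 and 54.3 for *H2-Ab1* and 1.08 and 39.5 for *H2-Aa*. With cells thinned to 2000 UMIs, *Cd74* was in 0.685% of control members and 18.7% of ACD members.

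Over the interferon list, 19 of 63 measured genes were at least 2-fold higher against 0.379% of all genes, none was lower, and all 63 lay above 0 with a median log2 difference of 0.70. The list as a whole summed to 2935 UMIs per 1000000 in control members and 8614 in ACD members, and the log2 ratio of these sums was 1.55 (1.54 to 1.57). Beside the class I genes, *Bst2* (tetherin) was at 5.0 in control and 46.9 in ACD, and the GTPase genes *Igtp* and *Iigp1* at 3.18 and 35.5 and at 0.625 and 24.4. *Ifitm3*, a membrane protein that blocks virus entry, was at 186 and 391. The parts of the pathway upstream of these genes differed less. The receptor genes *Ifngr1* (72.0 and 64.7) and *Ifngr2* (22.7 and 22.2) and the kinase genes *Jak1* (143 and 140.4) and *Jak2* (37.4 and 40.9) lay between -0.13 and 0.10 on the log2 scale. *Irf1* was at 546 and 644 and *Socs1*, the feedback inhibitor, at 98.7 and 134. The chemokine gene *Cxcl10* was at 9.43 and 25.7, and *Cxcl9* had 1 UMI in control and 61 in ACD members.

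Promoters of interferon response genes carry short sequences that bind interferon-activated factors, and 4 of the genes above are shown because their windows hold such letters. The sequences are the 150 bases before the start of each gene in RefSeq on GRCm38.p6, read 5′ to 3′ on the strand of the gene, with matches in capitals. Searched were TTCNNNGAA, the gamma-activated site (GAS), which reads the same on both strands, and the core of the interferon-stimulated response element (ISRE), which is GAAA, any 2 bases and GAAA again, on either strand.
Psmb8: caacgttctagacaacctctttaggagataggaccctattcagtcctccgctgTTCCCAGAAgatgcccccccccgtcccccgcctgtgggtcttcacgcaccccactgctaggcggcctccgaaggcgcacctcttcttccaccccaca
B2m: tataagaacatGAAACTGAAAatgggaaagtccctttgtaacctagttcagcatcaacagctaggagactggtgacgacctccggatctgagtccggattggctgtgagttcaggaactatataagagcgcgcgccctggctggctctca
Igtp: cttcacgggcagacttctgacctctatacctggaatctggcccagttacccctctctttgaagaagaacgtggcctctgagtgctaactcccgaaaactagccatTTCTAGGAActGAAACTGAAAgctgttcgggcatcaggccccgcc
Bst2: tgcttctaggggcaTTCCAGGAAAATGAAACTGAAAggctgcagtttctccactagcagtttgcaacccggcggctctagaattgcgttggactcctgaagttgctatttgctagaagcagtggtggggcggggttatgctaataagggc
The *Psmb8* window (chr17:34198045-34198194, plus strand) held a GAS match 97 bases before the RefSeq start. That start lies inside the *Psmb8* gene span given above, so the window is upstream of the RefSeq start only. The *B2m* window (chr2:122147537-122147686, plus strand) held an ISRE match 139 bases before the start. The *Igtp* window (chr11:58199406-58199555, plus strand) held both, 45 and 34 bases before the start. In the *Bst2* window (chr8:71537473-71537622, minus strand) a GAS match began 136 bases before the start and overlapped an ISRE match at 130 bases, which overlapped another at 124 bases, so the capitals run together. In RefSeq windows of 250 bases before to 50 after the start, either motif was present in 26 of 49 matched genes of the interferon list (53.1%), in 8 of 15 of those at least 2-fold higher (53.3%) in 11.1% of the 8876 matched genes measured in members and in 12.9% of all 27025 genes. A match is a description of letters and not a measured binding site.

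Class I transcripts were spread unevenly over the ACD members. In members thinned to 2000 UMIs, 13 class I and immunoproteasome genes together gave a median of 2 UMIs per cell in control, with quartiles of 1 and 4, and a median of 7 in ACD, with quartiles of 3 and 18. The 95th percentile of control was 6 UMIs. It was exceeded by 55 of 2191 control members (2.51%, 1.90 to 3.26) and by 677 of 1247 ACD members (54.3%, 51.5 to 57.1). The remaining 570 ACD members lay within the range of most control members. In the Angptl7 set the limit drawn in the same way was exceeded by 68.7% (63.1 to 73.9) of ACD cells, and in the Acan set by 37.1% (27.1 to 48.0).

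**Figure D3:**
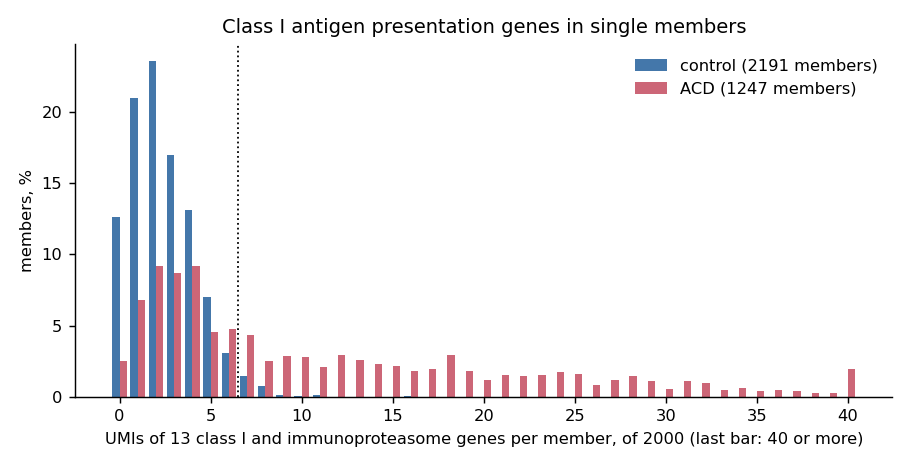
Share of members (vertical, %) by the UMIs of 13 class I and immunoproteasome genes in each cell after thinning to 2000 UMIs (horizontal), for 2191 control (blue) and 1247 ACD (red) members, with the control 95th percentile dotted. Control members lie mostly at 0 to 6 UMIs (12.6% at 0), and ACD members stretch well beyond the dotted line, with 54.3% to its right.

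The 677 ACD members above that limit and the 570 at or below it had like depth, with medians of 8832 and 9030 UMIs, and differed in other genes too. With the 13 genes left out, 60 of 11586 genes (0.518%) were at least 2-fold higher and 4 (0.0345%) at least 2-fold lower in the members above it. *Cd74* was at 501 above the limit and 12.1 at or below it, *Bst2* at 79.9 and 8.997 and *Igtp* at 62.2 and 4.86. The split used values of these cells, so it is a description, and the genes that follow were chosen after their values were seen. Complement genes were on the same side, with *C3* at 241 and 115 and *C4b* at 876 and 485, and so were *Chil1* at 1881 and 847 and *Cyp26a1*, which degrades retinoic acid, at 39.9 and 12.1. The Acan set genes *Corin*, at 86.0 and 200.1, and *Dgat2*, at 37.5 and 85.8, were on the other side. Genes of mineralizing cartilage lay on both sides: *Ibsp* (bone sialoprotein) was at 21.4 and 90.2 and *Col10a1* at 22.5 and 53.3, while *Spp1* was at 166 above the limit and 30.6 at or below it. Of 9 measured genes of that list, 1 was at least 2-fold higher and 1 lower, with a median of -0.03. *Eln* was at 1405 and 2374, and *Wif1* at 4437 and 5884.

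Leukocyte transcripts were also more frequent in ACD members, and their values belong beside these results. T and NK cell markers summed to 6.99 per 1000000 in control and 45.9 in ACD members, 0.223% and 0.922% of the leukocyte level, and were found in 1.91% and 20.1% of members. Myeloid markers other than *Cd74* summed to 17.8 and 35.9, which is 2.20% and 2.96% of the leukocyte level. In the same ACD members *Cd74* was at 14.2% of the leukocyte level, *H2-K1* at 36.0%, *B2m* at 37.6% and *H2-D1* at 49.8%. The part of leukocyte RNA in the members' values was not tested. Above and below the limit of 6 class I UMIs, the myeloid markers without *Cd74* were at 41.9 and 28.6, and T and NK markers at 67.0 and 21.1. The chemokine genes *Ccl3* and *Ccl4* followed another pattern: 5 ACD members held 87.0% and 76.8% of their UMIs, and their levels without the 5 richest members were 5.38 and 11.1.

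Complement and acute-phase genes formed the next group. *C4b* (ENSMUSG00000073418, chr17:34728380-34743882), a complement component, was at 241 (234 to 248) in control and 694 (679 to 709) in ACD, in 56.7% and 82.5% of members, and 5 members held 2.64% of its ACD UMIs. Leukocytes of ACD had *C4b* at 20.5. *C3*, the central complement component, was at 77.9 (73.8 to 82.1) in control and 182 (175 to 190.3). *Lcn2*, which encodes an iron-binding acute-phase protein, was at 6.19 and 25.9, but 5 ACD members held 51.3% of its UMIs. *Saa3*, an acute-phase gene, had no UMI in control members and 57 in ACD, where it was at least 27.97-fold higher against a floor of 3 UMIs in the control library. In all, 4 of 29 NF-kB and acute-phase genes were at least 2-fold higher, none lower, with a median of 0.19. None of 21 measured genes of the chemokine and cytokine list reached 2-fold, but *Ccl3* (2.33) and *Ccl4* (2.49), which are not on that list, did, and without the 5 richest members *Ccl4* stayed past it at 1.08.

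*Chil1* (ENSMUSG00000064246, chr1:134182176-134190181), which encodes the secreted chitinase-like protein of inflamed cartilage, was on no list and is named after its values were seen. It was at 412 (402 to 421) in control and 1400.0 (1379 to 1421) in ACD, in 65.4% and 78.9% of members. In the Angptl7 set it was at 80.4 and 1013, a larger log2 difference of 3.50 against 1.74.

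Among 37 measured genes of cartilage matrix only *Prg4* (ENSMUSG00000006014, chr1:150449412-150466165) reached 2-fold, and the median was -0.05. *Prg4* was at 371 (362 to 380.5) in control and 1030 (1012 to 1049) in ACD, found in 34.5% and 51.5% of members, with a log2 difference of 1.45, and of 1.38 without the 5 richest members. *Chad*, chondroadherin, an adhesion protein of the matrix, was at 1542 and 2480 (0.68), and *Fmod*, fibromodulin, which binds collagen fibrils, at 1450 and 947 (-0.61). The most abundant matrix genes differed little: *Dcn* was at 6465 and 6060, *Bgn* at 5803 and 5136 and *Mgp*, an inhibitor of mineral deposition, at 3548 and 3879. *Eln* was at 1403 and 1855.

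The fibrous collagens were lower. Of 17 measured genes none reached 2-fold, 15 were not above 0 and the median was -0.27. *Col1a1* (ENSMUSG00000001506, chr11:94936224-94953042) was at 718 (705 to 730.3) in control and 410 (398 to 421) in ACD, *Col1a2* at 3026 and 1893 and *Col3a1* at 1719 and 1116. Markers of dermal fibroblasts, a list that holds these 3 genes, summed to 12466 and 9922 in members, against 79915 and 55990 in fibroblasts themselves. The part of fibroblast RNA in the members' collagen values was not tested. *Postn*, the matricellular periostin, was 1 of the 2 genes at least 2-fold lower, at 30.2 and 8.45, and its log2 difference of -1.12 was -0.97 without the 5 richest members. *Tnmd*, tenomodulin, was at 116 and 57.8 (-0.90, and -1.03 without those members). The other gene 2-fold lower, *S100a9* of granulocytes, had 508 control UMIs, of which a single member held 505.

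Genes of hypertrophic and mineralizing cartilage were scarce. Of 9 measured, *Spp1* (osteopontin) and *Col10a1*, the collagen of hypertrophic chondrocytes, reached 2-fold. *Col10a1* was at 8.69 (7.37 to 10.2) and 36.8 (33.4 to 40.4), in 3.6% and 9.99% of members, and its log2 difference was 1.32, or 1.25 without the 5 richest members. In the Acan set it was at 117 and 183. *Spp1* was at 21.0 and 103, and 5 ACD members held 56.0% of its UMIs. *Gpx3*, a secreted glutathione peroxidase and the only 1 of 34 oxidative stress genes to reach 2-fold, was at 14.4 and 55.5.

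Stress genes lay slightly above 0. Of 36 immediate-early and heat-shock genes, 30 were above 0 with a median of 0.16, and none reached 2-fold. *Hspa1a*, an inducible chaperone, was at 669 and 1233 (0.87), *Hspa1b* at 493 and 888 (0.84) and *Hspb1* at 1824 and 2824 (0.63). Among 25 chondrocyte transcription factors none reached 2-fold and the median was 0.03: *Sox9* differed by 0.07 and *Klf4* by -0.06, while *Klf2* was at 1942 and 2444 and *Zbtb16*, a glucocorticoid-responsive factor, at 47.3 and 27.8. No gene of the lists for Wnt (39 measured, median -0.06), TGF-beta and BMP (40, -0.01), elastic fibre (21, -0.12), proteases and inhibitors (32, -0.02), cytokine receptors and signal chains (30, 0.00), lipid storage (32, 0.00), hypoxia and glycolysis (35, 0.04), secretory pathway (39, 0.08), cell cycle (15, 0.05), senescence (21, -0.02) or growth factors (33, -0.05) reached 2-fold. In the cytokine receptor list *Il11ra1*, the receptor of interleukin 11, was lowest, at 75.9 and 40.5, and *Cdkn1c*, an inhibitor of the cell cycle, was at 864 and 584.

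**Figure D4:**
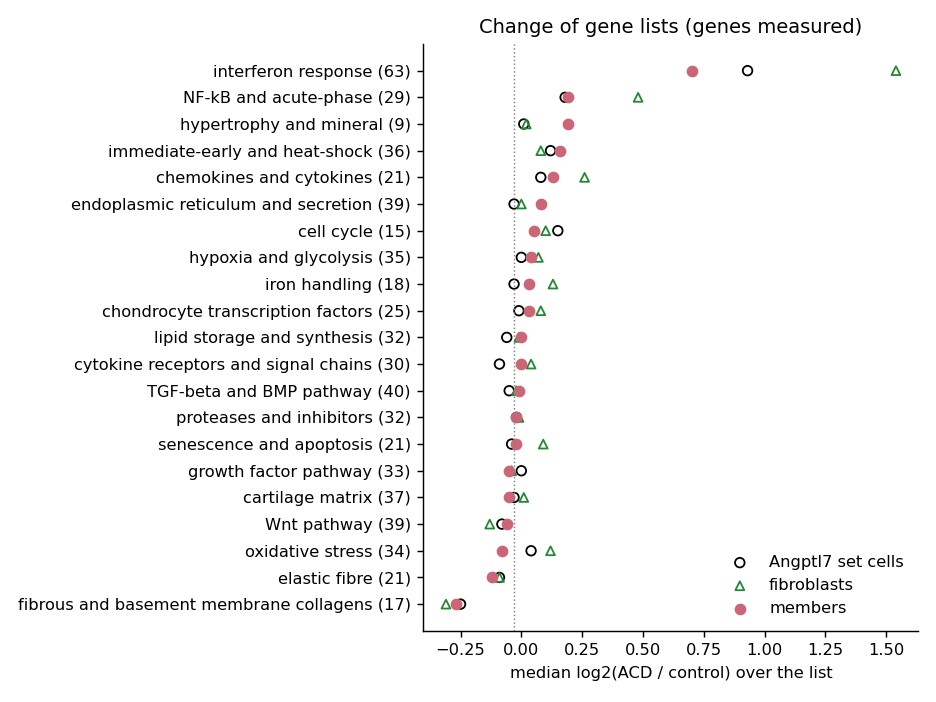
Median log2 difference of ACD over control (horizontal, 10 UMIs per 1000000 added) for each of 21 gene lists (vertical, number of genes measured) in members (filled), Angptl7 set cells (circles) and fibroblasts (triangles), with the median of all genes in members dotted. The interferon response list lies apart in all 3 cell classes, at 0.70 in members.

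Other classes had interferon differences on both sides of that of members. The median of the list was 0.70 in members, 0.93 in the Angptl7 set and 1.54 in fibroblasts with at least 2 *Pdgfra* UMIs, and these differences between classes were not tested. In the Acan set both heavy chain genes differed less than in members, with *H2-K1* at 114 in control and 519 in ACD and *H2-D1* at 855 and 2230. The interferon list exceeded the control 95th percentile of its own class in 39.3% of thinned Acan set cells and 51.6% of thinned members of ACD. *Iigp1* was at 24.4 in ACD members and 111 in ACD cells of the Angptl7 set, and *H2-Ab1* at 62.1 and 160, whereas *H2-K1* was at 752 and 749. In ACD, 107 genes (0.922%) were at least 2-fold higher and 6 (0.0517%) lower in the sum of the other cartilage classes, whose make-up differed between the libraries through the Acan set.

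The muscle and haemoglobin genes past 2-fold sat in a handful of members. *Acta1*, the actin of skeletal muscle, had the highest log2 difference, 3.11, with 16 control and 1009 ACD UMIs, but 3 ACD members held all of the latter. *Mylpf*, *Tnnc2*, *Tnni2*, *Tnnt3*, *Myl1* and *Ckm*, all muscle genes, and the haemoglobin genes *Hba-a1*, *Hbb-bs* and *Hbb-bt* were alike, with at least 91.5% of ACD UMIs in 5 members. With the 5 richest members of each gene left out of each library, 30 of the 44 genes stayed at least 2-fold higher (0.259% of 11599), among them 18 of the 19 interferon genes, and only *Tnmd* was 2-fold lower (0.00862%).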

How the data were processed

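Single-cell suspensions of ear skin were profiled with a droplet 3′ kit. The authors aligned reads to mm10 with Cell Ranger (version 3.1.0 in the submitters' processing notes) and deposited unnormalized UMI counts per gene and barcode. A barcode was kept with 201 to 4999 detected genes, no more than 25000 UMIs, and less than 8% of them mitochondrial. These filters left more cells than the study states. Doublets were not removed, and Scrublet (scanpy 1.11.5) called 63 control and 31 ACD members.

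UMI counts were summed over members of each library and scaled to 1000000, with 10 added before log2 ratios. Genes with at least 50 UMIs were measured. Sums have exact Poisson 95% intervals, shares Clopper-Pearson intervals and ratios exact conditional intervals, all for counting error only. With 1 library a group no test was run. Cells were thinned to 2000 UMIs only where this is stated. Other shares of members with a UMI of a gene were not thinned. They compare libraries of unlike depth, with medians of 7431 UMIs in control and 8944 in ACD members. On simulated data of 11605 genes for the comparison of ACD with control, 95.5% of intervals held the true value. The simulation drew Poisson counts, the model the intervals assume, so it cannot check spread between cells or mice. Of 200 genes given a log2 change of 2 in either direction, 67.5% passed the 2-fold limit. Of the 101 among them at 20 or more UMIs per 1000000, 100% passed it.

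Members and gene lists were chosen with earlier results of these data known. Named were the rule genes, the 10 genes at each end of the ACD difference, the 10 highest and 5 lowest of members over other cartilage cells, and 4 genes of each list by size of difference, with the 4 most abundant of the cartilage matrix and transcription factor lists. Genes of the *Msmp* and class I splits, chondrocyte and class I genes beside these, and others outside this rule were chosen after their values were seen. There were 11 planned and 4 added alternatives. Python 3.11.15, numpy 2.4.6, scipy 1.17.1 and pandas 2.3.3 were used. Some genes that met the naming rule are not reported here.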

Additional observations from a re-analysis of the deposited data

How the results depend on the processing

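No paired analysis was possible because each group is 1 library, and for the same reason no replicate could be left out. With 1 UMI per 1000000 added in place of 10, 128 genes were at least 2-fold higher and 27 lower in ACD members, 37 interferon genes were higher, 3 matrix genes passed 2-fold and 211 genes were higher in members than in other cartilage cells. The count of lower genes, 2 as reported, was 5 with a gate of at least 10 cartilage UMIs, and under settings added after seeing the data it was 8 with centred set scores, 6 with at least 3 UMIs of *Msmp* and *Trf* together, 5 with *Pdgfra* UMIs allowed and 1 without the 5 members richest in each gene. Without members of mixed content (417 control and 251 ACD members left) no matrix gene passed 2-fold (0), and 108 genes were higher in members than in other cartilage cells. That count was 18 with centred scores (774 and 406 members), where the log2 ratio of the member share was -0.17, and 127 with *Pdgfra* UMIs allowed. The causes were not tested. Without the 5 richest members the log2 differences of *Acta1* (-0.07), *Mylpf* (-0.08), *Tnnc2* (-0.06) and *S100a9* (0.33) changed sign. The other 69 values of the 6 counts and shares stayed close to those reported. Log2 differences of single named genes were less stable. Without members of mixed content 57 of 88 moved by more than their counting interval, and with centred scores 55 of 104. With *Pdgfra* UMIs allowed 38 of 115 moved, and with cells thinned to 2000 UMIs 29 of 100. At this depth genes below about 20 UMIs per 1000000 had differences shrunk by the 10 added.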

Other observations

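Transcripts of other cells were found in members, at levels that differed widely between marker lists. Red cell markers summed to 865 UMIs per 1000000 in control and 2465 in ACD members, with a UMI in 46.8% and 59.6% of them. Muscle markers summed to 12.95 and 208, and markers of pericytes and smooth muscle cells to 196 and 170.5. Keratinocyte markers summed to 193 UMIs per 1000000 in control and 161 in ACD members, endothelial markers to 10.4 and 16.6, and adipocyte markers to 0.625 and 2.34. Schwann cell and melanocyte markers summed to 91.6 and 141, and in ACD they were at 250.4 in the 677 members above 6 class I UMIs and 16.2 in the 570 others.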
